A study of Mus musculus with 9 samples.

Results

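Histone lysine demethylases were followed in immortalized mouse macrophages (the cell line IMM, labelled WT for wild type) as 10 genes chosen by symbol (Kdm1a, Kdm2a, Kdm2b, Kdm3b, Kdm4a, Kdm4b, Kdm4c, Kdm5b, Kdm6b and Kdm7a) among 55450 gene identifiers. Total RNA was sequenced in untreated cells at 0 min, the control of the design, and after 30 and 60 min of lipopolysaccharide (LPS) at 100 ng/mL. Each time had 3 libraries, 9 in all, which the design text calls biological replicates. LPS, from the outer wall of Gram-negative bacteria, is detected on macrophages by Tlr4. All groups come from 1 immortalized line in culture, so they show this line and not macrophages of a tissue. Cells given no LPS were taken at 0 min only, so the effects of LPS, of handling and of elapsed time cannot be told apart.

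Methyl groups on the lysines of histone tails mark chromatin states: H3K4 methylation is found at active promoters and enhancers, H3K36 methylation over transcribed bodies of genes, and H3K9 and H3K27 methylation in silenced chromatin. Lysine demethylases remove these groups. Kdm1a does so with a flavin cofactor, and the other members with a Jumonji C (JmjC) domain that needs iron, oxygen and 2-oxoglutarate. In macrophages Kdm6b, the demethylase of trimethylated H3K27 also called Jmjd3, is known as a gene induced by LPS.

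Libraries held 26867400 to 30402306 counts after rounding, and 14246 genes, among them all 10 members, passed the filter on low counts. The 5 LPS response genes examined as a check of the labels (Tnf, Il1b, Cxcl2, Nfkbia and Tnfaip3) were all higher at 30 and at 60 min than at 0 min. The 7 macrophage markers summed to 2100 to 2180 CPM (counts relative to the library total, adjusted by TMM) at 0 min, 2200 to 2210 CPM at 30 min and 2260 to 2360 CPM at 60 min, and their part in the results below was not tested. Of the markers of other cells, the 4 mast cell genes had 0 counts in every library, and the highest mean at any time was 0.822 CPM, for the endothelial gene Pecam1. In bulk RNA, fewer cells of a type and less RNA per cell cannot be told apart.

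Kdm6b was the only member called at 30 min and the member with the largest change in all 3 comparisons. At 60 min Kdm4a was also higher than at 0 min, and Kdm2b, Kdm2a and Kdm3b were lower, each by a log2 change of at most 0.22 in size. A gene was called at a Benjamini-Hochberg adjusted p under 0.05 in edgeR's two-sided quasi-likelihood test over all 14246 genes, with no minimum fold. At 30 min against 0 min, 1 of 10 members was higher and 0 were lower, where 8.18% of all genes tested were called, 4.84% higher and 3.35% lower. At an unadjusted p under 0.05 the same comparison gave 3 members higher and 1 lower, where 11.7% of all genes were higher and 9.7% lower, and DESeq2 and limma-voom each called 1 higher and 0 lower. At 60 min against 0 min, 2 members were higher and 3 lower, where 25.0% of all genes were called, 13.3% higher and 11.7% lower. At 60 min against 30 min, 1 was higher and 0 were lower, where 16.5% of all genes were called, 8.87% higher and 7.65% lower. The median log2 change of the members there was -0.04, beside 0.00 over all genes. This comparison had 2 members higher and 2 lower at an unadjusted p under 0.05, where 14.1% of all genes were higher and 13.7% lower, and DESeq2 and limma-voom again called 1 higher and 0 lower. The median log2 change of the 10 members was 0.08 at 30 min and 0.03 at 60 min against 0 min, beside 0.01 and 0.00 over all genes. With 10 members, 1 gene is the smallest step these counts can take, and the shares were not tested against each other.

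**Figure D1:**
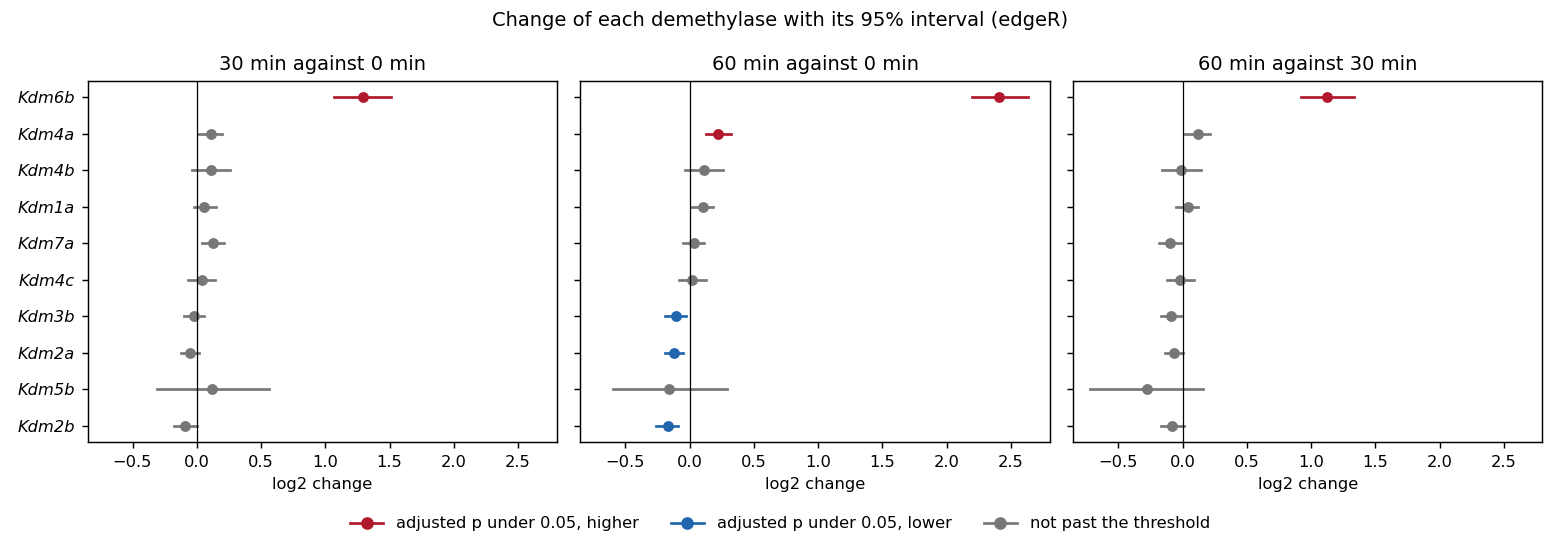
log2 change of each of the 10 demethylases (points) with its 95% interval (lines) in each of 3 comparisons, from the edgeR fit over 9 libraries; red marks members called higher, blue members called lower and grey the rest. Kdm6b lies at 1.29, 2.41 and 1.12, while the other members lie between -0.28 and 0.22, and Kdm5b has the widest interval.

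Kdm6b removes di- and trimethyl groups from H3K27, the mark laid down by Polycomb repressive complex 2 (PRC2). It is a short gene, 15.2 kb on the minus strand of chromosome 11 (GRCm38, chr11:69398508-69413675). At 0 min it stood at 31.98, 34.47 and 31.99 CPM, at 30 min at 99.0, 69.2 and 72.7 CPM, and at 60 min at 177.5, 172 and 175 CPM (replicates 1 to 3). Its antisense gene Kdm6bos had 0 counts in all libraries. Every library at a later time lay above every library at each earlier time. The mean at 30 min was 80.3 ± 16.3 CPM against 32.8 ± 1.43 CPM at 0 min (SD, n = 3 each), a log2 change of 1.29 (SE 0.10, 2.45-fold, adjusted p = 8.54e-07). The mean at 60 min was 175 ± 2.72 CPM (SD, n = 3), a log2 change of 2.41 against 0 min (SE 0.10, 5.33-fold, adjusted p = 3.37e-10) and of 1.12 against 30 min (SE 0.09, 2.18-fold, adjusted p = 1.44e-06). Among all genes tested, ordered from the largest rise down, Kdm6b ranked at place 199 at 30 min and at place 142 at 60 min against 0 min. In the authors' deposited table its log2 fold change was 1.29 at 30 min and 2.41 at 60 min, with the direction, LPS over 0 min, read from the signs of known LPS genes.

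At 30 min Kdm6b was highest in replicate 1. The same library was the highest at 30 min for all 5 LPS response genes. Tnf, a cytokine of the early response, stood there at 446 CPM in replicate 1 and at 279 and 298 CPM in replicates 2 and 3. Nfkbia, the inhibitor that restrains NF-kB, stood at 209 CPM in replicate 1 and at 145 and 149 CPM in the other two. Without that library the log2 change of Kdm6b at 30 min against 0 min was 1.11, the lowest of all alternatives run, and it was still called. Over 17 alternatives the log2 change of Kdm6b ran from 1.11 to 1.39 at 30 min and from 2.35 to 2.45 at 60 min against 0 min, and it was called in 17 of 17 at both times.

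**Figure D2:**
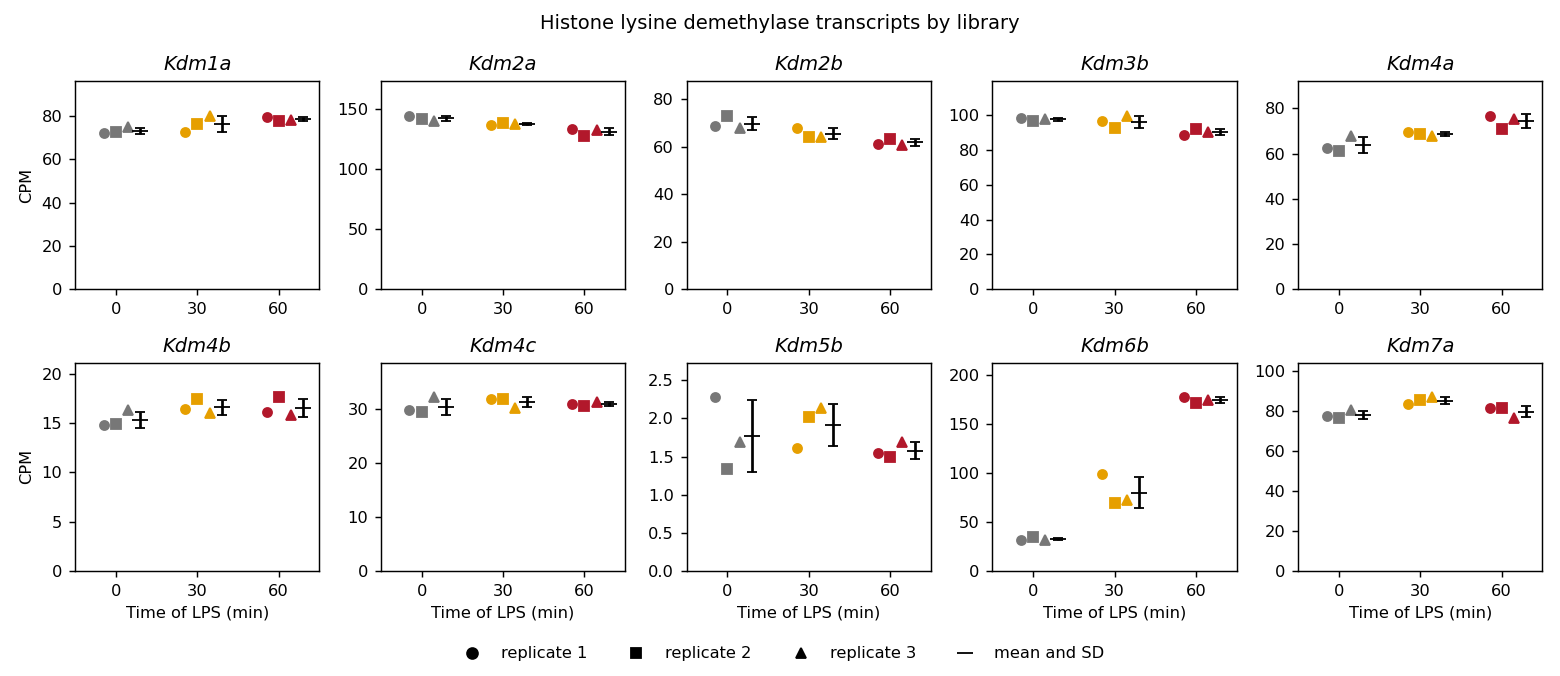
CPM (y axis from 0, a scale of its own for each gene) of the 10 demethylases in each library at 0, 30 and 60 min of LPS; symbols mark the replicate numbers and black bars the mean ± SD of 3 libraries. Kdm6b climbs in steps that do not overlap, with replicate 1 highest at 30 min, and Kdm5b lies between 1.335 and 2.274 CPM in all libraries.

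Kdm6a (Utx) is the X-linked relative of Kdm6b that acts on the same mark, and no member here. It stood at 43.4, 43.6 and 38.7 CPM at 0 min, at 44.0, 43.2 and 46.3 CPM at 30 min and at 45.8, 48.1 and 48.0 CPM at 60 min. The counts of Kdm6b over those of Kdm6a within a library, a ratio that needs no scaling between libraries, were 0.738, 0.791 and 0.827 at 0 min, 2.25, 1.60 and 1.57 at 30 min and 3.87, 3.58 and 3.66 at 60 min. In counts, with no regard to length, Kdm6b lay below Kdm6a in all 3 libraries at 0 min and above it in all 6 later ones. The ratio was 2.27-fold higher at 30 min and 4.72-fold higher at 60 min than at 0 min, and 2.08-fold higher at 60 min than at 30 min. The exact two-sided permutation test over libraries gave p = 0.1 for each of these 3 comparisons, the smallest value that 3 against 3 libraries allow.

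**Figure D3:**
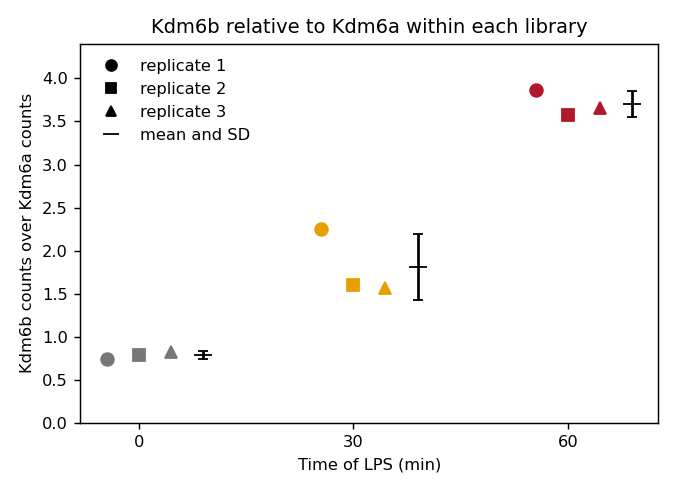
Kdm6b counts divided by Kdm6a counts (y axis, no unit) in each library at 0, 30 and 60 min of LPS, with the mean ± SD of 3 libraries in black. The ratio is below 1 at 0 min, between 1.57 and 2.25 at 30 min and between 3.58 and 3.87 at 60 min.

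Kdm4a, Kdm4b and Kdm4c remove trimethyl groups from H3K9 and H3K36. Kdm4a stood at 62.31, 61.04 and 67.79 CPM at 0 min, at 69.7, 68.6 and 67.6 CPM at 30 min and at 76.8, 71.0 and 75.3 CPM at 60 min. The libraries at 60 min lay above all others, while those at 30 min overlapped those at 0 min through replicate 3 of 0 min. At 60 min against 0 min its log2 change was 0.22 (SE 0.04, 1.17-fold, adjusted p = 0.002, 95% interval 0.13 to 0.32), called in 17 of 17 alternatives. At 30 min its log2 change was 0.11 (adjusted p = 0.183).

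The RefSeq table of GRCm38.p6 held promoters for 6 of the 10 members: Kdm1a, Kdm2b, Kdm4a, Kdm4c, Kdm5b and Kdm7a. Of the 2 members that rose it held Kdm4a alone, and the 250 bases before its start (chr4:118180044-118180293, minus strand) are shown 5′ to 3′ for that reason, with a match to the AP-1 motif in capitals.
Kdm4a promoter: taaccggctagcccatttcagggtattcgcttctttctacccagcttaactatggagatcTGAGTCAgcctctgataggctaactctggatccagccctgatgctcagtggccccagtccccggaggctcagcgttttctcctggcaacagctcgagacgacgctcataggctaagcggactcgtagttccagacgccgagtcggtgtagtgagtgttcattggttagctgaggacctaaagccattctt
AP-1 was searched as TGANTCA, which reads alike on both strands, and its match lies 190 bases before the start. The same motif occurs in 6.75% of 32851 promoters of this length. The NF-kB motif GGGRNNYYCC and the CRE motif TGACGTCA were also searched and had no match in these 250 bases. They occur in 7.25% and 1.55% of promoters of this length. A match is a stretch of letters and was not tested for binding.

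Kdm4b and Kdm4c did not pass the test in any comparison. Kdm4b averaged 15.3 CPM at 0 min, 16.6 CPM at 30 min and 16.5 CPM at 60 min, and the 95% interval of its log2 change at 60 min against 0 min was -0.04 to 0.26. Kdm4c, the longest member at 163 kb, ranged over 29.4 to 32.2 CPM at 0 min, 30.3 to 31.8 CPM at 30 min and 30.65 to 31.3 CPM at 60 min, with an interval of -0.08 to 0.13. Rises of the size seen in Kdm4a lay inside the interval of Kdm4b and outside that of Kdm4c.

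Kdm3b and Kdm7a also act on H3K9: Kdm3b removes mono- and dimethyl groups there, and Kdm7a removes dimethyl groups from H3K9 and H3K27. Kdm3b stood at 98.3, 96.5 and 97.7 CPM at 0 min, at 96.4, 92.6 and 99.6 CPM at 30 min and at 88.8, 92.1 and 90.5 CPM at 60 min. The libraries at 60 min lay below all others, and those at 0 and 30 min overlapped. The log2 change at 60 min against 0 min was -0.11 (SE 0.04, adjusted p = 0.0405), and in the authors' deposited table the same change had an adjusted p of 0.106. The call was lost in 10 of 17 alternatives, among them DESeq2 (adjusted p = 0.0679), no filter on low counts (0.0563) and leaving out any 1 of 7 libraries. Those 7 are the 3 of 0 min (0.0526 to 0.109), the 3 of 60 min (0.0587 to 0.113) and replicate 1 of 30 min (0.0509).

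Kdm7a stood at 77.3, 76.8 and 80.4 CPM at 0 min, at 83.5, 85.5 and 86.9 CPM at 30 min and at 81.6, 81.5 and 76.4 CPM at 60 min. All libraries at 30 min lay above all others, and those at 60 and 0 min overlapped. Its log2 change at 30 min against 0 min was 0.13 (SE 0.04, 95% interval 0.04 to 0.21, unadjusted p = 0.00537), which did not pass after adjustment (adjusted p = 0.0601).

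Kdm2a and Kdm2b remove mono- and dimethyl groups from H3K36 and bind unmethylated CpG-rich DNA through a CXXC zinc finger. Kdm2b also brings a variant of Polycomb repressive complex 1 (PRC1.1) to CpG islands. Kdm2b stood at 68.6, 73.1 and 67.8 CPM at 0 min, at 68.2, 64.2 and 64.3 CPM at 30 min and at 61.2, 63.5 and 60.9 CPM at 60 min. The libraries at 60 min lay below all others, and 1 library at 30 min lay inside the range of 0 min. Its log2 change was -0.17 at 60 min against 0 min (SE 0.04, adjusted p = 0.0061), called in 17 of 17 alternatives, and -0.09 at 30 min (adjusted p = 0.216). Its counts were not whole numbers in any of the 9 libraries, as RSEM gives where reads match several genes. Kdm2b had 17033 counts over the 9 libraries. On the opposite strand it shares 627 exon bases with Rnf34 (5346 counts) and 199 with A930024E05Rik (175 counts). On the same strand it shares 124 with Gm44574, which had 2 counts over the 9 libraries. Whether reads were counted by strand is not given in the sources used here.

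Kdm2b has 4 starts in the RefSeq table, the first and the last of them 88.7 kb apart. The downstream starts are known to give a short form that lacks the JmjC domain, and counts per gene do not separate the forms. The 250 bases before the most upstream start (chr5:122989100-122989349, minus strand, 68.0% G and C, 27 CG pairs) and before the most downstream start (chr5:122900351-122900600, minus strand, 80.8% G and C, 38 CG pairs) are shown 5′ to 3′ because the measured fall cannot be assigned to either.
Kdm2b upstream start: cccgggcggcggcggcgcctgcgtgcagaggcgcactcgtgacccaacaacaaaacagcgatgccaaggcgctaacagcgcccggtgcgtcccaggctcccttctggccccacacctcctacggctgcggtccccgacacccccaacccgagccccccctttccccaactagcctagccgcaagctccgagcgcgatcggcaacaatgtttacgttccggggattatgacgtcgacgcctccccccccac
Kdm2b downstream start: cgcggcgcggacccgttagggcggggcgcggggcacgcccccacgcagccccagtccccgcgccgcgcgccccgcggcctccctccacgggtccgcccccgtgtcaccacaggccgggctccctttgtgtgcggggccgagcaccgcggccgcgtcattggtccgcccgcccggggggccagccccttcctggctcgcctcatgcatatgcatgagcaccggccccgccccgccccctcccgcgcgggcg
Both hold more CG pairs than the median promoter of this length, which has 6 among 52.4% G and C. Neither holds a match to AP-1, to the NF-kB motif or to the CRE motif TGACGTCA, which occur in 6.75%, 7.25% and 1.55% of promoters of this length. Of the other starts of the 6 members found, 1 of Kdm2b and that of Kdm5b hold an NF-kB match, 19 and 116 bases before the start.

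Kdm2a stood at 145, 142 and 140.5 CPM at 0 min, at 137, 138 and 137.5 CPM at 30 min and at 133, 128 and 133 CPM at 60 min. The 3 times did not overlap, with 60 min lowest and 0 min highest. At 60 min against 0 min the log2 change was -0.12 (SE 0.03, adjusted p = 0.0145), and at 30 min -0.05 (adjusted p = 0.416). The call at 60 min was lost without replicate 1 of 0 min (adjusted p = 0.059) and without replicate 2 of 60 min (adjusted p = 0.0843).

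Kdm1a (Lsd1) and Kdm5b remove methyl groups from H3K4, Kdm1a the mono- and dimethyl forms within the CoREST complex and Kdm5b the di- and trimethyl forms. Kdm1a stood at 72.21, 72.64 and 74.96 CPM at 0 min, at 72.7, 76.6 and 80.2 CPM at 30 min and at 79.5, 77.6 and 78.4 CPM at 60 min. The libraries at 60 min lay above those at 0 min, and those at 30 min spread over both ranges. The log2 change at 60 min against 0 min was 0.10 (95% interval 0.01 to 0.18) and did not pass after adjustment (adjusted p = 0.0839). Kdm5b was near the lower end of what was counted, with means of 1.77 CPM at 0 min, 1.92 CPM at 30 min and 1.58 CPM at 60 min. Its log2 change at 60 min against 0 min was -0.16 with an interval of -0.60 to 0.29, so a change of the size seen in Kdm4a in either direction was not detectable at this depth.

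Set per length, as CPM per kb of merged exons (GENCODE M21), the order of the members changed through Kdm6b. At 0 min the order of mean levels was Kdm1a (14.1 CPM per kb), Kdm4a (11.0), Kdm2a (9.86), Kdm7a (7.77), Kdm3b (6.92), Kdm2b (6.43), Kdm4c (5.23), Kdm6b (4.72), Kdm4b (3.13) and Kdm5b (0.107), and no neighbours in it overlapped. At 30 min Kdm6b stood at 11.5 ± 2.34 CPM per kb (SD, n = 3), in place 3, its libraries overlapping those of Kdm4a and Kdm1a above it. At 60 min it stood first at 25.2 ± 0.388 CPM per kb, above Kdm1a at 15.2 ± 0.186 CPM per kb (SD, n = 3 each). The order rests on the length used. Per kb of the longest annotated transcript, Kdm6b at 30 min stood in place 6 (12.1 ± 2.45 CPM per kb, SD, n = 3) and overlapped Kdm3b, Kdm4a and Kdm2b above it. By the same length, Kdm6b at 60 min stood at 26.3 ± 0.409 CPM per kb and Kdm1a at 25.9 ± 0.316 CPM per kb, and their libraries overlapped.

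Kdm6b made up 6.81% ± 0.359 of the summed level of the 10 members at 0 min, 14.8% ± 2.60 at 30 min and 27.6% ± 0.182 at 60 min (SD, n = 3 each, CPM per kb of merged exons). The sum over the other 9 members was 64.6 ± 1.23 CPM per kb at 0 min, 66.4 ± 0.505 CPM per kb at 30 min and 66.0 ± 0.582 CPM per kb at 60 min. Share and sum also rest on the length used. The longest transcript of Kdm6b has 6654 bases against 6954 of merged exons, while that of Kdm3b, for example, has 6363 against 14095. By the longest transcript the share of Kdm6b is therefore lower at each time.

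**Figure D4:**
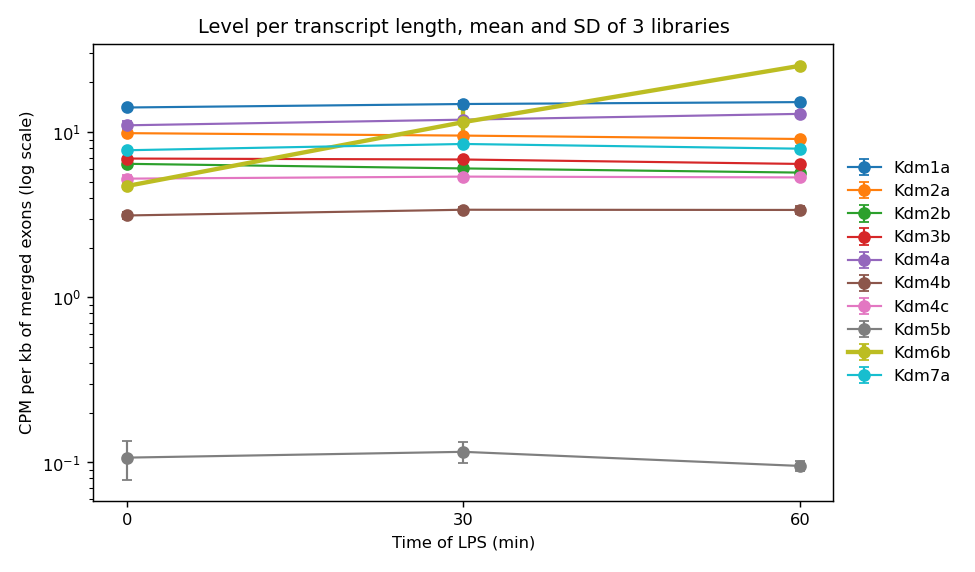
Mean level of each of the 10 demethylases (CPM per kb of merged exons, log scale) against time of LPS, with SD of 3 libraries as bars. Kdm6b is in place 1 at 60 min, against place 8 at 0 min, while the other lines stay close to level.

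The members were set beside lists of related genes, whose median log2 changes at 60 min against 0 min lay between -0.08 and 0.08, beside 0.00 over all genes. The counts of these lists at 60 min against 0 min stand beside 13.3% of all genes higher and 11.7% lower. Those at 30 min against 0 min stand beside 8.18% of all genes called, and at an unadjusted p under 0.05 beside 11.7% higher and 9.7% lower. The counts were not tested against these shares. In these lists Phf19 and Rcor3 are named for the size of their change, and the others were named after their values were seen. Of the 15 other histone demethylases listed, 13 were tested, and Kdm4d and Hr had too few counts (at most 13 counts summed over the 3 libraries of a time). At 30 min against 0 min edgeR called 0 of 13 (2 higher and 0 lower before adjustment at p under 0.05; 0 by the other two tools). At 60 min against 0 min 4 were higher and 0 lower (0 lower also before adjustment and by the other two tools). Riox2, a nucleolar JmjC oxygenase, had a log2 change of 0.36 (adjusted p = 0.000351), and it was also the only one higher at 60 min than at 30 min. The other 3 calls did not hold in all alternatives. Kdm6a (0.18, adjusted p = 0.019) was lost without replicate 3 of 0 min or replicate 2 or 3 of 60 min and with library totals as the only scaling, with adjusted p of 0.06 to 0.0993. Jmjd1c, a relative of Kdm3b (0.26, adjusted p = 0.0128), was lost without replicate 1 of 0 min or of 60 min and with library totals (0.0529 to 0.0745). At 30 min Jmjd1c was called higher without replicate 2 of 0 min (adjusted p = 0.0337) and with no filter on low counts (0.0121). Kdm5a, a relative of Kdm5b (0.11, adjusted p = 0.0273), was lost in 9 of 17 alternatives (0.052 to 0.399). Among them were those without replicate 1 or 2 of 0 min or any 1 replicate of 60 min (0.058 to 0.105). Library totals as the only scaling gave 0.399 for Kdm5a. Of the 6 JmjC proteins with no established demethylation of histone lysines, 0 were called at 30 min (0 higher and 2 lower at an unadjusted p under 0.05; 0 by both other tools). At 60 min against 0 min Jarid2 was higher (0.17) and Jmjd6 lower (-0.14).

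PRC2 writes the H3K27 mark that Kdm6b removes. Of 12 PRC2 genes tested, edgeR called 0 at 30 min against 0 min (1 higher and 2 lower before adjustment at p under 0.05; 0 by the other two tools, DESeq2 and limma-voom) and 5 higher and 0 lower at 60 min. Phf19, an accessory subunit that binds trimethylated H3K36, stood at 21.5, 21.1 and 22.4 CPM at 0 min, at 23.7, 21.1 and 24.8 CPM at 30 min and at 38.2, 35.5 and 36.3 CPM at 60 min. Its libraries at 60 min lay above all others. The log2 change was 0.76 at 60 min against 0 min (SE 0.06, 1.69-fold, adjusted p = 3.46e-07) and 0.66 against 30 min (adjusted p = 3.71e-06). At 60 min against 0 min, no PRC2 gene was lower before adjustment or by DESeq2 or limma-voom. The other 4 that were higher were Aebp2 (0.31), Jarid2 (0.17), Rbbp4 (0.13, adjusted p = 0.0493) and Rbbp7 (0.10, adjusted p = 0.0498). The calls of Rbbp4 and Rbbp7 were kept in 6 and 3 of 17 alternatives. At 30 min Ezh2 was called lower with library totals (adjusted p = 0.0419) and with no filter on low counts (0.0207). The catalytic subunits did not pass at 60 min against 0 min, with a log2 change of -0.09 for Ezh2 (adjusted p = 0.159) and -0.11 for Ezh1 (adjusted p = 0.147), and with library totals as the only scaling Ezh2 (0.0152) and Ezh1 (0.0206) were called lower.

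CoREST is the complex through which Kdm1a acts on nucleosomes. Of its 9 partners tested here, 0 were higher and 2 lower at 60 min against 0 min, where DESeq2 and limma-voom also called 0 higher and the unadjusted p under 0.05 gave 0. Rcor3, a CoREST scaffold relative, stood at 22.1, 23.9 and 22.2 CPM at 0 min, at 18.2, 18.9 and 17.9 CPM at 30 min and at 13.1, 14.6 and 13.9 CPM at 60 min. The 3 times did not overlap, with 60 min lowest. The log2 change of Rcor3 was -0.31 at 30 min (adjusted p = 0.00603) and -0.72 at 60 min (SE 0.06, adjusted p = 1.03e-06) against 0 min. The other that was lower at 60 min was the repressor Gfi1 (-0.47, adjusted p = 0.00144). At 30 min Gse1 was the only one higher (0.14, adjusted p = 0.037), a call lost in 10 of 17 alternatives. The scaffold Rcor1 did not pass at 60 min (-0.06, adjusted p = 0.342).

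Of 9 PRC1.1 partners of Kdm2b, 0 were called at 30 min (0 at an unadjusted p under 0.05 and by both other tools), and 2 were higher and 1 lower at 60 min against 0 min. Rnf2, the ubiquitin ligase of the complex, was higher (0.26, adjusted p = 0.000178) in 17 of 17 alternatives. Bcor (0.15, adjusted p = 0.0224) was lost without replicate 2 or 3 of 0 min, without replicate 3 of 60 min and with library totals (0.0603 to 0.183). Its relative Bcorl1 (-0.20, adjusted p = 0.0246) was lost without replicate 1 of 0 min or of 60 min (0.096 to 0.104).

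Methyltransferases of H3K4, of H3K9 and of H3K36 and H3K79 were taken as 3 lists. Of 14 genes of H3K4 methyltransferase complexes, 0 were higher and 4 lower at 60 min against 0 min, with 0 higher at an unadjusted p under 0.05 and by both other tools. They were the methyltransferases Setd1b (-0.32, adjusted p = 7.32e-05) and Kmt2b (-0.22, adjusted p = 0.000588), the core subunit Rbbp5 (-0.17, adjusted p = 0.00471) and the coactivator Ncoa6 (-0.18, adjusted p = 0.0238). The call of Ncoa6 was lost without replicate 1 or 2 of 0 min or replicate 1 or 2 of 60 min (0.0784 to 0.0934). Of these 4, Kmt2b (adjusted p = 0.0829) and Ncoa6 (adjusted p = 0.149) did not pass at 60 min against 30 min. Setd1b was lower at 60 min than at 30 min (-0.26, adjusted p = 0.000891), as was Rbbp5 (-0.14, adjusted p = 0.0188). Of 6 H3K9 methyltransferases, 0 were higher and 1 lower at 60 min against 0 min, namely Ehmt1 (-0.20, adjusted p = 0.00129), with 0 higher at an unadjusted p under 0.05 and by both other tools. Of 6 H3K36 and H3K79 methyltransferases, 1 was higher and 0 lower, namely the H3K79 enzyme Dot1l (0.20, adjusted p = 0.00184), where 1 was lower at an unadjusted p under 0.05 and 0 by both other tools. At 30 min edgeR, DESeq2 and limma-voom called 0 genes of these 3 lists, which at an unadjusted p under 0.05 held 1 higher and 2 lower, 1 higher and 0 lower, and 0 higher and 1 lower in the order given here. Kmt2b was called lower at 30 min in 2 of 17 alternatives, with library totals as the only scaling (adjusted p = 0.0226) and with a minimum count of 50 (0.0492).

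The 5 protein-coding genes with the course nearest to Kdm6b, by the root mean square difference of log2 CPM less the 0 min mean over 9 libraries among 9382 genes with a mean of at least 5 CPM, were Rasgef1b, Zc3h12a, Il1rn, Ccl4 and Trem1. Rasgef1b, a Ras guanine nucleotide exchange factor, was nearest, at a difference of 0.131. It averaged 58.2 CPM at 0 min, 128 CPM at 30 min and 334 CPM at 60 min. Zc3h12a, an RNase that degrades cytokine mRNAs, followed at 0.136, Il1rn, the interleukin-1 receptor antagonist, at 0.164, the chemokine Ccl4 at 0.173 and the myeloid receptor Trem1 at 0.191. Their correlations with Kdm6b over the 9 libraries ran from 0.987 to 0.997, as a description of genes picked for likeness over these same libraries.

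**Figure D5:**
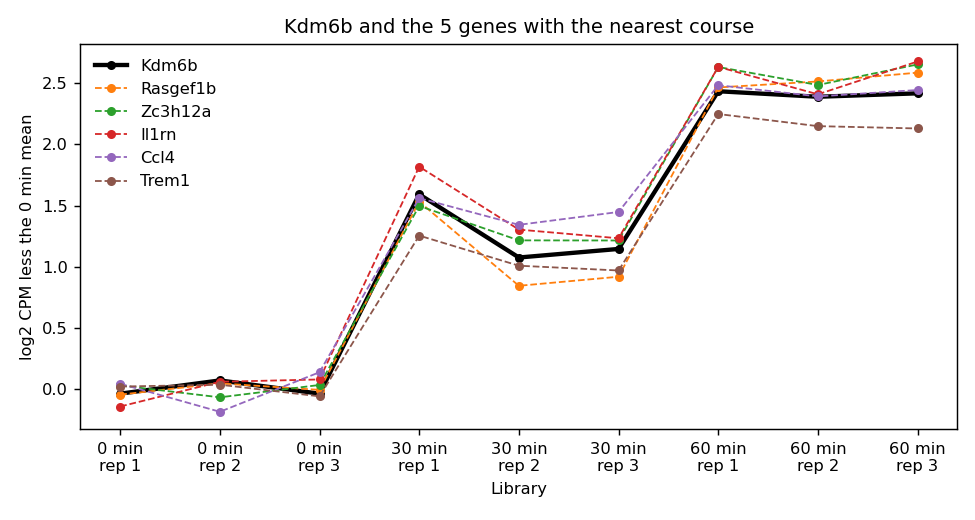
log2 CPM less the mean at 0 min (y axis) of Kdm6b (thick black line) and the 5 genes with the nearest course (dashed lines) in each of the 9 libraries, joined only to help the eye. All 6 genes lie near 0 at 0 min and between 2.13 and 2.68 at 60 min.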

How the data were processed

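The authors deposited expected counts for each gene, not normalized, in a table that its name ties to RSEM. The submitters' processing notes name STAR 2.7.0f, RSEM 1.3.1, cutadapt 1.18, bcl2fastq 2.20, Picard 2.18.26 and DESeq2 and the build mm10, without their roles. The sources used here give neither settings nor annotation nor strand setting. Of the values of a library, 5.04% to 5.32% were not whole, and all were rounded. The authors' deposited tables of 30 and 60 min give a log2 fold change and an adjusted p-value per gene, per the file headers. Their direction, LPS over 0 min, was read from the signs of known LPS genes. Per the labels, libraries were made from total RNA after removal of ribosomal RNA, so reads from unspliced RNA can enter the counts.

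Genes were kept by filterByExpr (minimum count 10), scaled by TMM (factors 0.9705 to 1.034) and tested in 1 quasi-likelihood fit of all 9 libraries in edgeR 4.0.16 (R 4.3.3), with time as the only term and Benjamini-Hochberg adjustment over all genes. The biological coefficient of variation was 5.2%. The SE is the size of the log2 change divided by the root of the F statistic, and intervals use the t quantile of the fit. The script was tested on simulated data. All 55450 identifiers were found in GENCODE M21 (GRCm38), which gave positions and lengths, 1-based; promoters are those of RefSeq on GRCm38.p6. Replicate pairs differed by more than sampling noise in the mean over genes (chi-square per gene of 4.93 to 18.3). The median over genes was lower (0.867 to 1.37), and also above the median that sampling noise alone gives. That replicates are biological rests on the labels; otherwise the p-values measure the spread between these libraries only.

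The members and lists were chosen with earlier results of these data known, and 1 gene of the CoREST list is not reported here. All members are named; of each other list, genes past the test with an absolute log2 change of at least 0.5 are named, and others are said to be named after their values were seen. Alternatives were other scalings, DESeq2 1.42.0, limma-voom (limma 3.58.1), other filters, only the 2 times compared, a replicate block, leaving out each library, and another gene length.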

Additional observations from a re-analysis of the deposited data

Results flagged for a closer look

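The change at 60 min less the change at 30 min was tested directly as 60 min against 30 min. Of the 89 genes of the lists that were tested, 20 differed between the times at an adjusted p under 0.05 in edgeR, beside 16.5% of all genes. The 89 include the 5 LPS response genes, which were picked as known responders and were all called. They raise the count, and it was not tested against the share over all genes. Among the demethylases Kdm6b rose further by a log2 change of 1.12, and outside the 10 members Riox2 by 0.43. The 5 genes nearest to Kdm6b were chosen by their course over these libraries, so their log2 changes at 60 min against 30 min are a description with no test: 1.39 for Rasgef1b, 1.28 for Zc3h12a, 1.1 for Il1rn and for Trem1, and 0.99 for Ccl4. The LPS response genes rose further by 1.32 (Il1b), 1.22 (Nfkbia), 0.87 (Tnfaip3), 0.84 (Cxcl2) and 0.71 (Tnf).

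The lists other than the demethylases and the LPS response genes also held calls at 60 min against 30 min. Higher were Phf19 by 0.66, Aebp2 by 0.25, Hspbap1 by 0.25, Rnf2 by 0.20, Dot1l by 0.18, Bcor by 0.17 and Jarid2 by 0.11. Lower were Rcor3 (-0.41), Gfi1 (-0.41), Setd1b (-0.26), Ehmt1 (-0.20), Rbbp5 (-0.14) and Ehmt2 (-0.14). Of these calls, that of Jarid2 was kept in 5 of 17 alternatives and that of Hspbap1 in 8 of 17, and both were lost without any 1 of several libraries, with adjusted p up to 0.232 and 0.194. Bcor was called in 14 of 17 alternatives and Ehmt2 and Rbbp5 in 13 of 17; the losses came without 1 library of 30 or 60 min, for Bcor also with library totals as the only scaling and for Rbbp5 also with DESeq2.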

How the results depend on the processing

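Over 17 alternatives Kdm6b was called in all 3 comparisons, and Kdm4a and Kdm2b at 60 min against 0 min, in 17 of 17. No result changed its direction while called. With library totals as the only scaling, which put the median log2 change of all genes at -0.068 at 60 min against 0 min, 4 members were lower at 60 min than at 30 min (Kdm2a, Kdm2b, Kdm3b and Kdm7a, adjusted p 0.0186 to 0.0424), and 3048 genes were lower at 60 min than at 0 min and 1672 than at 30 min. That scaling gave a share of higher calls among all calls of 45.9% at 30 min and 30.1% at 60 min against 0 min and 37.5% at 60 min against 30 min, where TMM gave 59.1%, 53.1% and 53.7%. With no filter 757 genes were lower at 30 min than at 0 min, and leaving out 1 library gave 290 to 523. Leaving out 1 library left 1 to 3 members lower at 60 min than at 0 min, 1 without replicate 1 of 0 min or replicate 2 of 60 min. With the longest transcript as length, levels at 0 min were 24.2 CPM per kb for Kdm1a, 16.6 for Kdm2a, 15.3 for Kdm3b, 13.7 for Kdm4a, 13.5 for Kdm2b, 8.17 for Kdm7a, 7.26 for Kdm4c, 4.93 for Kdm6b, 3.35 for Kdm4b and 0.203 for Kdm5b. Same-numbered libraries did not deviate together (correlations of -0.064 to 0.006) and were not paired in the main test. Such correlations cannot exclude that the numbers pair samples. The replicate block gave 0.0645 as the adjusted p of Kdm3b at 60 min against 0 min. It gave 2 members higher and 2 lower at 60 min against 0 min, and 1 higher and 0 lower in each other comparison. Over all genes the block gave 588 higher and 379 lower at 30 against 0 min, and 1720 and 1514 at 60 against 0 min. At 60 against 30 min it gave 1156 higher and 952 lower. The cause of these shifts was not tested. Depth limits Kdm5b most, and counts per gene do not separate unspliced from mature RNA, isoforms or strands.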
